A study of Mus musculus with 8 samples.

Results

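The nuclear genes of the mitochondrial respiratory chain and ATP synthase were measured in hematopoietic stem cells of the mouse, the cells at the root of blood formation in bone marrow. The members were the genes of the count table whose symbols begin with Nduf (a to c, s or v, then a digit), Sdh (a to d), Uqcr, Cox4 to Cox8 or Atp5 and which had at least 10 counts in at least 3 libraries. Of 23358 genes in the table, 84 matched the symbols and 78 passed the count minimum: 34 of complex I, 4 of complex II, 8 of complex III, 15 of complex IV and 17 of complex V. All 78 also passed the filter of the test. Ndufa4 was placed with complex IV, to which its protein belongs, and Atp5s and Atp5sl stand with complex V by symbol only. The subunits encoded in mitochondrial DNA are not analysed here.

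The respiratory chain sits in the inner mitochondrial membrane. Complex I takes electrons from NADH and complex II takes them from succinate as an enzyme of the citric acid cycle; both pass them through ubiquinone to complex III, and cytochrome c carries them on to complex IV, which reduces oxygen. Complexes I, III and IV pump protons, and ATP synthase (complex V) uses the gradient to make ATP. Quiescent hematopoietic stem cells are known for relying largely on glycolysis and for drawing more on mitochondrial respiration when they divide and differentiate.

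The cells were sorted from bone marrow as Lin-Sca+Kit+CD48-CD150+ and went into Trizol without culture. There were 3 wild type libraries, 3 labelled Huwe1 KO (Mx1-Cre) and 2 labelled Huwe1 KO (Vav-Cre). HUWE1 is a very large ubiquitin ligase of the HECT class. Mx1-Cre is an interferon-inducible recombinase, described for this series as deleting inducibly, and Vav-Cre is active in blood cells from early development and deletes constitutively. The labels name no Cre or inducing agent for the wild type mice, list no treatment, and give no strain, age or time after induction, so the Cre itself and any inducer cannot be told apart from the deletion. They also do not say whether libraries came from separate animals, so the p-values measure the spread between these libraries, which may be technical.

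Total counts were 28689765 to 33202926 per library, of which the 78 members took 0.921 to 1.28%. Levels are CPM (the count scaled to a common library size) after TMM scaling. The Huwe1 row had 434, 398 and 433 CPM in wild type 1 to 3, 444, 399 and 412 with Mx1-Cre and 445 and 490 with Vav-Cre. The Mx1-Cre values overlapped those of wild type. Both Vav-Cre values lay above all wild type values, as they did for 15.6% of all tested genes, so neither line lay below wild type. A single count per gene cannot show whether some of its exons are gone, and the groups are named here as labelled. All 10 stem cell marker genes on the list used (among them Slamf1, Kit, Procr and Mecom) were detected in the series, with a summed level of 3760 to 6210 CPM per library. The summed level of 8 myeloid progenitor genes (Mpo, Elane and others) was 445 to 709 CPM for wild type, 165 to 213 with Mx1-Cre and 155 to 376 with Vav-Cre. The erythroid genes Hba-a1, Hba-a2, Hbb-b1 and Hbb-b2 were at 0 in every library.

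Many nuclear respiratory genes carry binding motifs for NRF1, GABP and YY1 in their promoters. RefSeq promoter windows (GRCm38.p6, from 250 bases before to 50 after the start) matched 66 of the 78 members. The NRF1 motif GCATGCGC, searched on both strands, was in the windows of 10 of these 66 (15.2%), against 5.68% of the tested genes with a window and 2.71% of all windows. CCGGAAG, the GABP core, was in 16 (24.2%, against 18.8% and 8.86%), AAGATGGC of YY1 in 11 (16.7%, against 4.99% and 2.75%), and at least 1 of the 3 motifs in 31 (47.0%, against 26.8% and 13.3%). No motif contains another. A match is a description of the letters and not a shown binding site. Stretches of 30 bases with the NRF1 motif are printed for members of complexes I to V, as examples of the 10 windows that hold it. They are written 5′ to 3′ on the gene's strand, with the NRF1 matches in capitals; a longer capital run holds matches on both strands, which overlap.
Ndufa8 (chr2:36049328-36049357, minus strand): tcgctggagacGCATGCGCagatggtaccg
Sdhb (chr4:140961206-140961235, plus strand): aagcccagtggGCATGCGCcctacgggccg
Uqcrc1 (chr9:108936668-108936697, plus strand): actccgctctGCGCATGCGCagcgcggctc
Cox6a1 (chr5:115349101-115349130, minus strand): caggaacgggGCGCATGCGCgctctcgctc
Atp5k (chr5:108434430-108434459, minus strand): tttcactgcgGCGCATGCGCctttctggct
The Sdhb, Cox6a1 and Atp5k stretches lie upstream of the start, that of Ndufa8 spans it and that of Uqcrc1 lies downstream of it. The 10 members with the NRF1 motif had a median log2 difference from wild type of 0.16 with Mx1-Cre and 0.01 with Vav-Cre. The 56 members whose window lacked it had medians of 0.14 and -0.02.

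No respiratory chain or ATP synthase gene passed the edgeR test in any comparison. Mx1-Cre against wild type called 0 of the 78 members (edgeR quasi-likelihood test, Benjamini-Hochberg adjusted over 14086 genes, threshold 0.05), where it called 2.49% of all tested genes. Vav-Cre against wild type called 0 of 78 against 0.511% of all genes, both lines averaged against wild type 0 of 78 against 2.65%, and Vav-Cre against Mx1-Cre 0 of 78 against 0.170%. At an unadjusted p under 0.05 the counts were 1 of 78 for Mx1-Cre (Cox5a, higher), 1 for Vav-Cre (Uqcrc1, lower), 0 for both lines averaged and 2 for Vav-Cre against Mx1-Cre (Uqcrc1 and Ndufa10, lower), against 16.6, 13.4, 16.5 and 13.3% of all tested genes. In the same order of comparisons, limma called 0 of the 77 members present in the deposited CPM table in each, against 4.85, 1.17, 4.12 and 0.225% of all genes it tested. DESeq2 called 0, 0 and 0 of 78, against 7.40, 4.21 and 6.77% of all genes, and for Vav-Cre against Mx1-Cre 1 of 78, Uqcrc1, against 3.28%.

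The intervals of most members were narrow. The median SE of a member's log2 difference was 0.19 for Mx1-Cre and 0.21 for Vav-Cre. The 95% interval lay within 2-fold either way for 72 of 78 members with Mx1-Cre and 73 with Vav-Cre, against 62.1 and 59.4% of all tested genes, and within 1.5-fold for 44 and 39, against 32.6 and 26.0%. Differences over 2-fold were therefore outside the interval for most members, while differences of 1.5-fold were not for many of them. The widest intervals belonged to Cox7a1, the member with the fewest counts (10 to 28 per library), and Cox4i2, whose counts ran from 67 to 281.

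**Figure D1:**
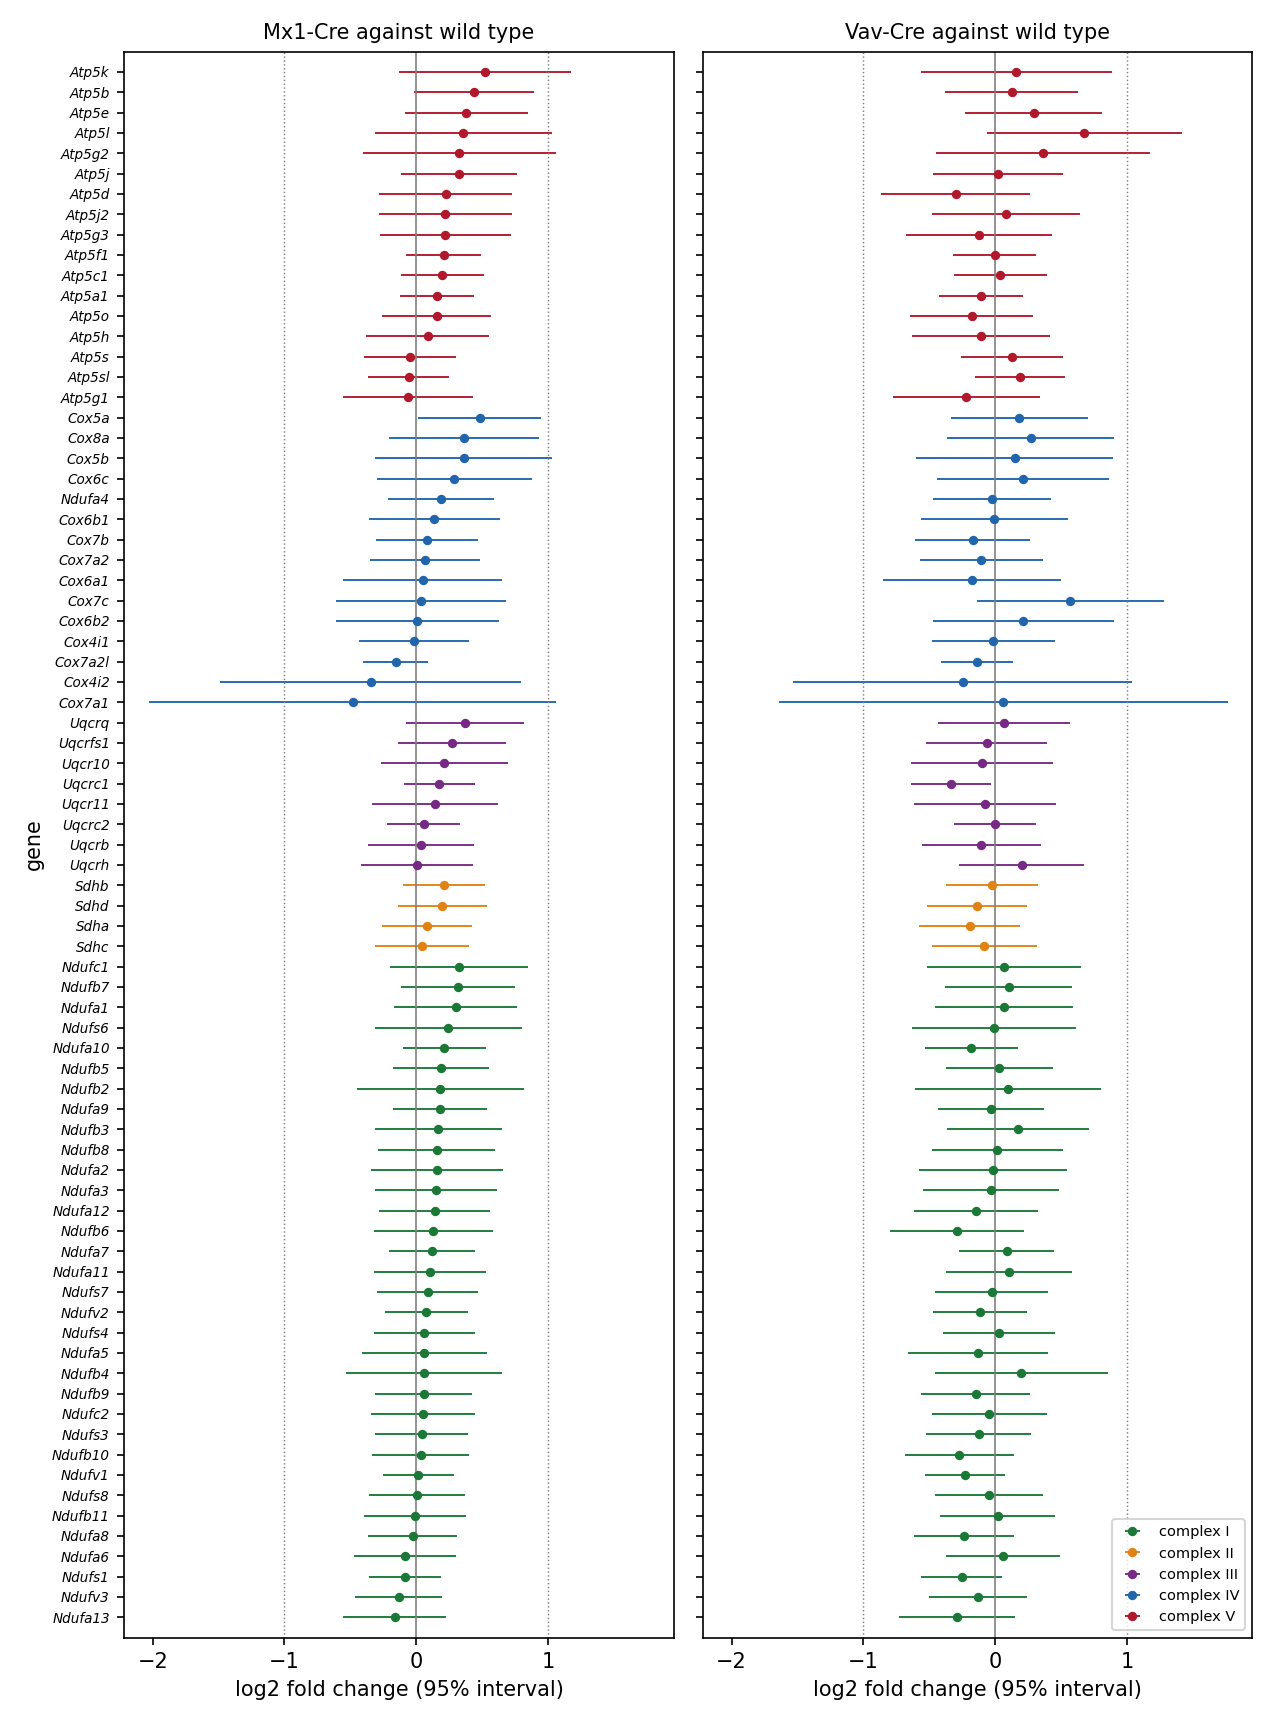
Log2 fold change of 77 of the 78 members against wild type (points) with its 95% interval from edgeR (lines), by complex, for Mx1-Cre (left) and Vav-Cre (right); dotted lines mark 2-fold. Only Cox5a on the left and Uqcrc1 on the right have intervals that leave out 0, and neither passed after adjustment.

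Most members had small positive differences with Mx1-Cre, and the signs were mixed with Vav-Cre. With Mx1-Cre, 65 of 78 members had a positive log2 difference from wild type, with a median of 0.13, where 51.3% of all tested genes were positive with a median of 0.01. With Vav-Cre, 32 of 78 were positive (49.0% of all genes), with a median of -0.02 (all genes, -0.01). Both comparisons use the same wild type libraries. Set against each other, Vav-Cre was below Mx1-Cre for 62 of 78 members, with a median of -0.17, where 50.6% of all genes were positive with a median of 0.01. These are counts and medians over genes that vary together, with no test. Scaling to library totals alone moved the medians to 0.06 for Mx1-Cre and -0.12 for Vav-Cre minus Mx1-Cre.

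These medians rested on single libraries. As a difference from the wild type mean on the log2 CPM scale, the median over the members was -0.27, 0.18 and 0.08 in wild type 1, 2 and 3. For Mx1-Cre 1, 2 and 3 it was 0.00, -0.07 and 0.39, and in Vav-Cre 1 and 2 it was 0.11 and -0.17. Wild type 1 was thus the lowest library and Mx1-Cre 3 the highest, while Mx1-Cre 1 and 2 lay between the wild type libraries. Mx1-Cre 3 was the highest of the 8 libraries for 65 of 78 members (83.3%, against 18.1% of all tested genes), and wild type 1 the lowest for 41 (52.6%, against 13.4%). Vav-Cre 2 was the lowest for 25 members (32.1%, against 18.5%), and Vav-Cre 1 was above Vav-Cre 2 for 68 of 78.

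The Mx1-Cre median was 0.13 with all libraries, 0.0044 without wild type 1, -0.03 without Mx1-Cre 3 and -0.16 without both. The Vav-Cre median was -0.02 with all libraries, -0.18 without Vav-Cre 1 and 0.10 without Vav-Cre 2. The Vav-Cre minus Mx1-Cre median kept its sign in all 20 alternatives and shrank from -0.17 to -0.01 without Mx1-Cre 3 and to -0.02 without Vav-Cre 2. The medians of both lines are smaller in size than the difference between wild type 1 and wild type 2.

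**Figure D2:**
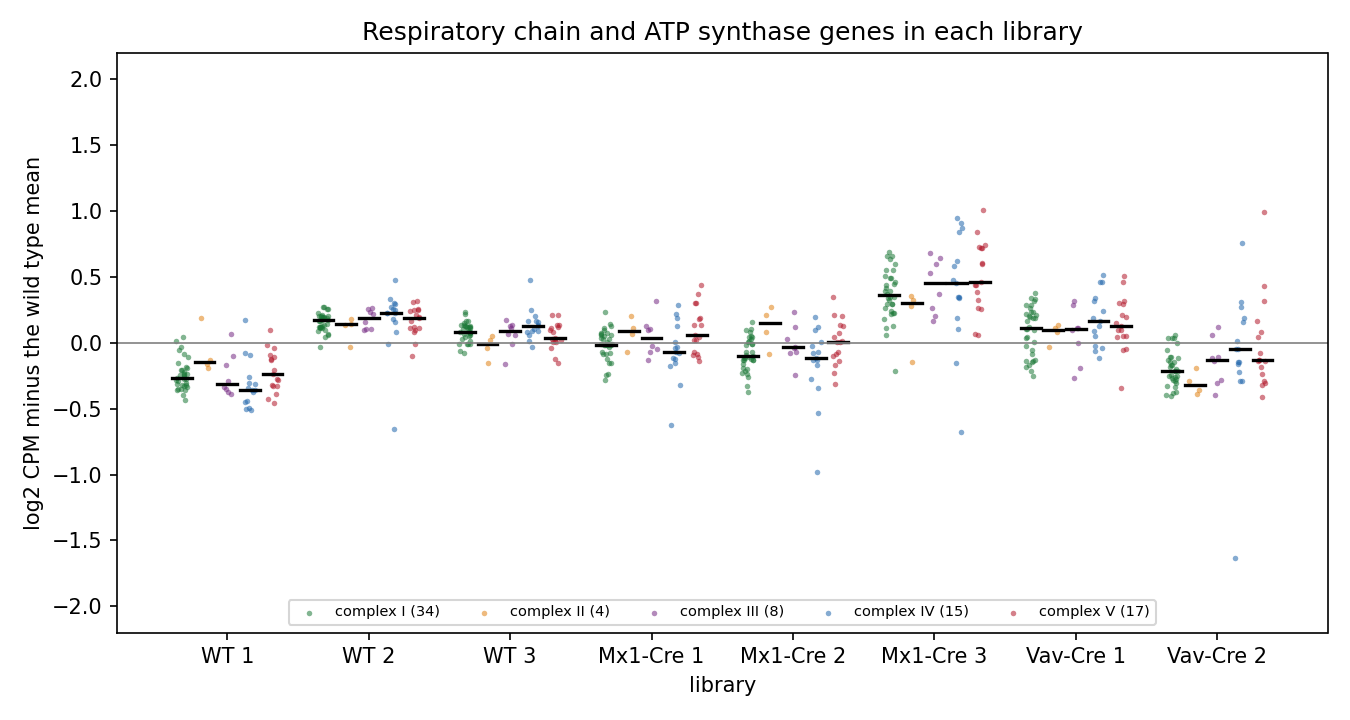
Each point is 1 of the 78 members in 1 library, as log2 CPM minus the mean of the 3 wild type libraries, in 5 columns per library for complexes I to V; black bars are the medians of each complex. The medians of the 5 complexes all lie below 0 in wild type 1 and above 0 in Mx1-Cre 3.

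Most members varied together across the libraries. The correlation of a member's log2 CPM with the median of the other members over the 8 libraries exceeded 0.8 for 54 of 78, where 3.75% of all tested genes exceeded 0.8 with the members' median; the libraries share depth and preparation, so these are descriptions. The median correlation was 0.90. It was below 0 for 6 members: Cox7a1 (-0.62), Ndufs1 (-0.35), Sdha (-0.30), Cox7c (-0.17), Atp5sl (-0.06) and Atp5s (-0.01). Atp5s and Atp5sl are not structural subunits of ATP synthase.

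Members have short transcripts, with a median length of 743.5 bases against 2686 for all tested genes, and other short genes were also low in wild type 1 and high in Mx1-Cre 3, by less. Among genes with transcripts under 750 bases, the 40 members had medians of -0.33 and 0.49 in these libraries, and the 633 other genes -0.18 and 0.12. Among the 12 members of 1500 to 3000 bases, the medians were -0.08 and 0.25, and among the 5155 other genes of that length -0.02 and -0.02. With transcript length as an offset, an alternative chosen after seeing the data, the Mx1-Cre median was 0.18. The part of RNA quality or amplification in the library pattern was not tested.

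**Figure D3:**
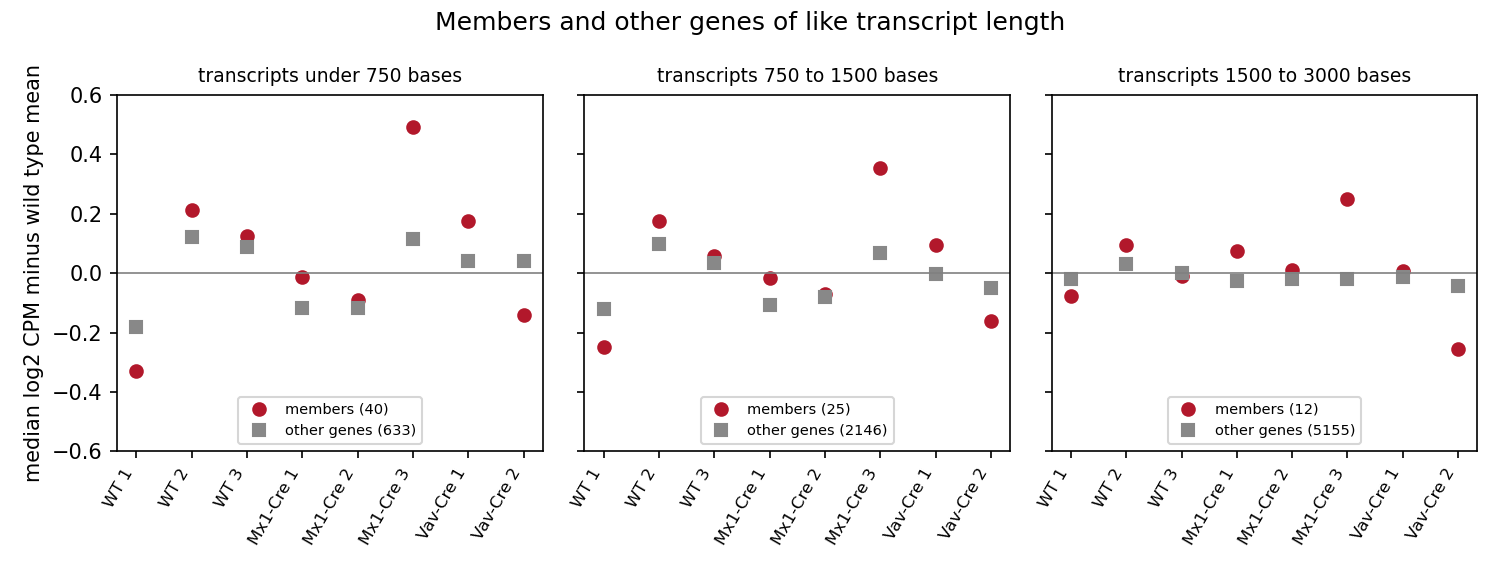
Median log2 CPM minus the wild type mean in each library for the members (circles) and for other tested genes (squares) in 3 classes of transcript length. In Mx1-Cre 3 the members of every class plotted lie above the other genes, at 0.49, 0.35 and 0.25 from short to long.

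Proliferation genes also differed by library. The 20 G2/M genes (Mki67, Top2a, Ccnb1 and others) had a summed level of 3116 to 3199 CPM in wild type, 4144 to 5014 with Mx1-Cre, and 4155 and 1997 in Vav-Cre 1 and 2. All 20 had positive differences with Mx1-Cre (median 0.51) and 5 of 20 with Vav-Cre (median -0.14). The edgeR test called 0 of 20 in either, where it called 2.49 and 0.511% of all tested genes. All Mx1-Cre libraries were above wild type for 17 of 20, against 10.9% of all tested genes. For Vav-Cre, 0 of 20 were above and 1 below, against 15.6 and 17.1%. Vav-Cre 2 was the lowest library for this list and had the lowest respiratory median of the libraries labelled knockout. Mx1-Cre 3 was the highest library for both, at 5014 CPM and a respiratory median of 0.39. Mx1-Cre 1 had 4850 CPM of G2/M genes and a respiratory median of -0.0034. Wild type 1, the lowest for the respiratory members, had 3124 CPM of G2/M genes, near the other wild type libraries. The part of proliferation in the respiratory values was not tested. In bulk samples, fewer cells of a type and less RNA per cell cannot be told apart.

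Complex I, the NADH dehydrogenase, had 34 members. Their summed level was 3193 ± 373 CPM (SD) in wild type, 3355 ± 520 with Mx1-Cre and 3004 ± 390 with Vav-Cre. With Mx1-Cre, 28 of 34 log2 differences were positive (median 0.08), and with Vav-Cre, 13 of 34 (median -0.03). The group means thus differed by less than the SD within a group.

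The catalytic core of complex I showed differences under its error with Mx1-Cre. Ndufv1, which holds the site where NADH is oxidised, had 211, 223 and 215 CPM in the wild type libraries, 217, 215 and 225 with Mx1-Cre and 204 and 165 with Vav-Cre. Both Vav-Cre values lay below every wild type and Mx1-Cre value. Its log2 difference was 0.02 ± 0.12 (SE) with Mx1-Cre and -0.23 ± 0.14 with Vav-Cre (edgeR adjusted p = 0.507). Ndufs1, the largest subunit, which carries iron-sulfur clusters, had 161, 153 and 156 CPM in wild type, 141, 168 and 135 with Mx1-Cre and 132 and 131 with Vav-Cre. The Vav-Cre libraries were again the lowest, and the Mx1-Cre libraries spread over and around the wild type values. The Vav-Cre log2 difference was -0.25 ± 0.14 (edgeR adjusted p = 0.46).

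Other core subunits showed no separation of the groups with Mx1-Cre. Ndufv2, an iron-sulfur subunit beside Ndufv1, had 210.1, 252 and 241 CPM in wild type, 242, 223 and 276 with Mx1-Cre and 241 and 191 with Vav-Cre, with the groups overlapping. Ndufs3, Ndufs7 and Ndufs8 line the path of electrons to ubiquinone. Their log2 differences with Mx1-Cre were 0.04 ± 0.16, 0.09 ± 0.17 and 0.01 ± 0.17. With Vav-Cre, they were -0.13 ± 0.18, -0.03 ± 0.19 and -0.05 ± 0.18. Each is smaller than its SE.

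Among the accessory subunits of complex I, which surround the core, Ndufa10 had 115, 129.9 and 115 CPM in wild type, 131, 121 and 165 with Mx1-Cre and 108 and 103 with Vav-Cre. Both Vav-Cre libraries were below all others, and Mx1-Cre 3 was the highest. Vav-Cre minus Mx1-Cre was -0.39 ± 0.16 (edgeR adjusted p = 0.33). Ndufb6, a subunit of the membrane arm, had 31.6, 44.7 and 37.3 CPM in wild type, 37, 34.5 and 52.7 with Mx1-Cre and 33 and 28.9 with Vav-Cre, a difference between the lines of -0.42 ± 0.23. Its Vav-Cre libraries overlapped the wild type range and not that of Mx1-Cre.

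The 3 complex I members with the smallest p with Mx1-Cre were Ndufb7 (0.32 ± 0.20), Ndufa10 (0.21 ± 0.14) and Ndufa1 (0.30 ± 0.21), with edgeR adjusted p of 0.468, 0.505 and 0.534. Ndufa13, also known as the cell death regulator GRIM-19, had a Vav-Cre difference of -0.29 ± 0.20. Its 68.2, 95.2 and 92.5 CPM in wild type and 72.6 and 66.9 with Vav-Cre overlapped through wild type 1. Ndufb7 and Ndufa1 turned slightly negative with Mx1-Cre when wild type 1 and Mx1-Cre 3 were both left out.

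Complex II, succinate dehydrogenase, is the only complex encoded wholly in the nucleus, and all 4 genes passed the count minimum. Their summed level was 1095 ± 57.3 CPM in wild type, 1202 ± 35.4 with Mx1-Cre and 1003 ± 183 with Vav-Cre. All 4 log2 differences were positive with Mx1-Cre (median 0.14) and negative with Vav-Cre (median -0.11). By library the sum was 1075, 1159 and 1050 in wild type, 1162, 1222 and 1223 with Mx1-Cre, and 1132 and 873 with Vav-Cre. The Mx1-Cre sums lay just above the wild type range, and the low Vav-Cre mean came from Vav-Cre 2. With library totals as the only scaling, the ratio of the Mx1-Cre to the wild type sum was 1.04 in place of 1.10.

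Sdha, the flavoprotein that oxidises succinate, had 458, 392 and 360.2 CPM in wild type, 433, 484 and 362 with Mx1-Cre and 392 and 313 with Vav-Cre. It ran against most members, being highest of its group in wild type 1 and lowest of its group in Mx1-Cre 3. Sdhb, the iron-sulfur subunit, had 194, 238 and 220.1 in wild type, 249.7, 229 and 277 with Mx1-Cre and 237 and 189.8 with Vav-Cre. Its log2 difference was 0.21 ± 0.14 with Mx1-Cre and -0.03 ± 0.16 with Vav-Cre. Sdhd, a membrane anchor, had 272, 338 and 290.04 CPM in wild type, 314, 346 and 374 with Mx1-Cre and 316 and 229 with Vav-Cre. Vav-Cre 2 was the lowest library for both Sdhb and Sdhd, and the Vav-Cre minus Mx1-Cre difference of Sdhd was -0.34 ± 0.17 (edgeR adjusted p = 0.436). The other anchor, Sdhc, gave 0.04 ± 0.16 with Mx1-Cre and -0.08 ± 0.18 with Vav-Cre. Without Vav-Cre 2 the Vav-Cre differences of Sdhc and Sdhd became 0.10 and 0.08, and the Mx1-Cre difference of Sdha turned to -0.01 without Mx1-Cre 2.

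Complex III, the cytochrome bc1 complex, held the member with the smallest p for Vav-Cre against Mx1-Cre. Uqcrc1 encodes a large core protein on the matrix side. It had 329, 335 and 281 CPM in wild type, 337, 369 and 362 with Mx1-Cre and 261 and 239 with Vav-Cre. All 3 Mx1-Cre values were above all wild type values, and both Vav-Cre values below them. The log2 difference was 0.17 ± 0.12 with Mx1-Cre and -0.33 ± 0.14 with Vav-Cre (edgeR adjusted p = 0.527 and 0.322). Vav-Cre minus Mx1-Cre was -0.51 ± 0.14, with a 95% interval of -0.82 to -0.20, an edgeR adjusted p of 0.181 and a DESeq2 adjusted p of 0.0166. Over the 20 alternatives this difference was -0.57 to -0.45 with adjusted p from 0.0166 to 0.587, so the call depends on the tool. No 50-base stretch of its transcript occurs in another annotated gene.

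The other large core protein, Uqcrc2, did not share that pattern. It had 296, 342 and 316 CPM in wild type, 312, 324 and 356 with Mx1-Cre and 343 and 292 with Vav-Cre, with overlapping groups and a Vav-Cre minus Mx1-Cre difference of -0.06 ± 0.14. Uqcrfs1, the Rieske iron-sulfur protein, had 64.5, 78.3 and 75.9 in wild type, 79.6, 71.1 and 114 with Mx1-Cre and 63.7 and 75.7 with Vav-Cre, high in Mx1-Cre 3 alone. Uqcrq, a small subunit, had the largest Mx1-Cre difference of its complex, 0.37 ± 0.20, from 50.5, 74.7 and 70.5 in wild type and 79.98, 70.01 and 103 with Mx1-Cre. Mx1-Cre 3 was again the highest, and Mx1-Cre 2 lay inside the wild type range. Uqcrh, the hinge protein, and Uqcrb gave 0.20 ± 0.21 and -0.11 ± 0.20 with Vav-Cre. All 8 members were positive with Mx1-Cre (median 0.16) and 2 of 8 with Vav-Cre (median -0.07), and the summed levels were 1087 ± 102, 1194 ± 139 and 1030 ± 99.0 CPM.

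**Figure D4:**
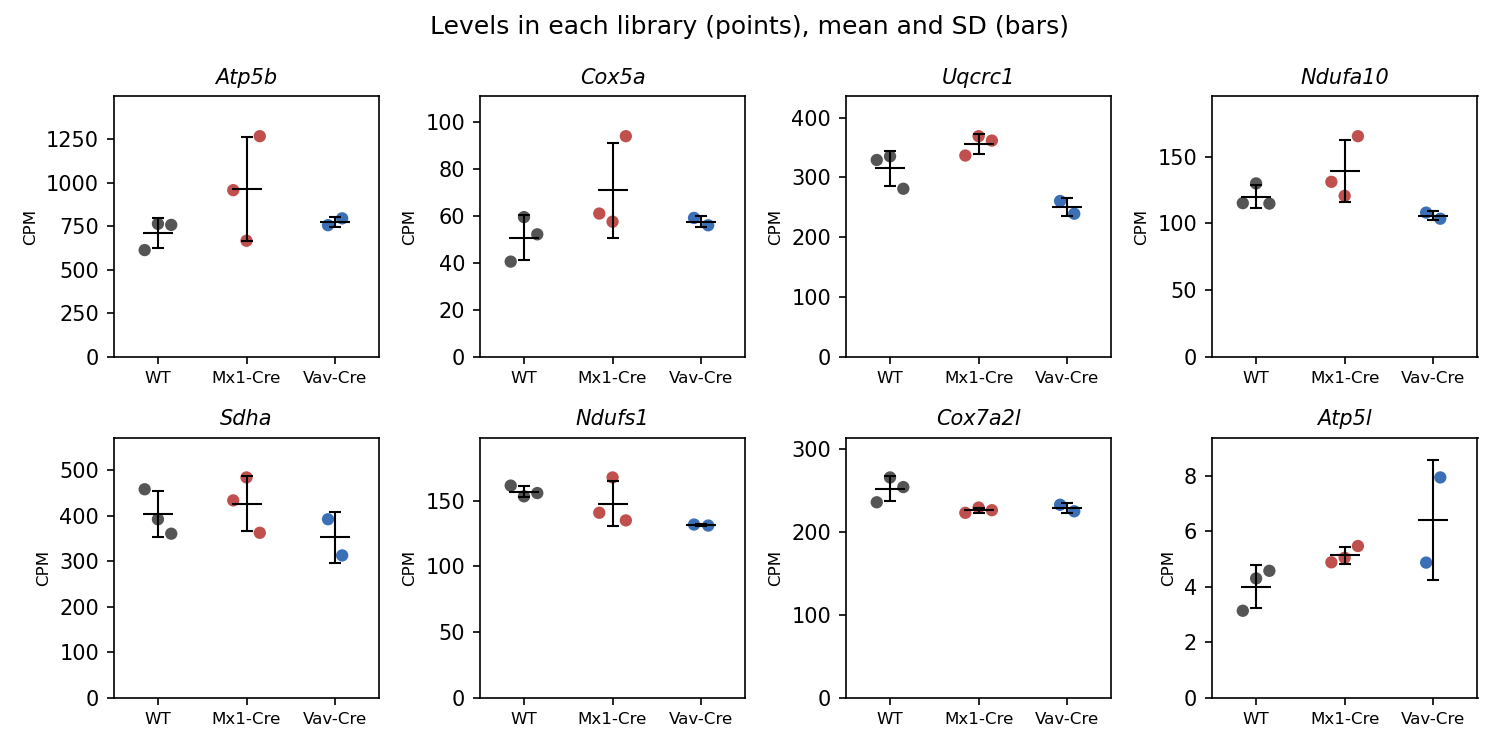
CPM in each library (points) with the group mean and SD (bars) for 8 members; the axes start at 0. Uqcrc1 is 329, 335 and 281 in wild type and below that in both Vav-Cre libraries, while Atp5b and Cox5a are highest in Mx1-Cre 3.

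Complex IV, cytochrome c oxidase, had 15 members, with summed levels of 1364 ± 242 CPM in wild type, 1427 ± 314 with Mx1-Cre and 1343 ± 115 with Vav-Cre. With Mx1-Cre, 11 of 15 differences were positive (median 0.07), and with Vav-Cre, 7 of 15 (median -0.01). Cox5a, a nuclear subunit on the matrix side of the enzyme, had 40.4, 59.4 and 52.1 CPM in wild type, 60.9, 57.4 and 93.8 with Mx1-Cre and 59 and 55.9 with Vav-Cre. Mx1-Cre 3 stood well above the other libraries, and Mx1-Cre 2 was below wild type 2. Its Mx1-Cre log2 difference was 0.48 ± 0.21, the smallest p of all members in that comparison (edgeR adjusted p = 0.286). Without wild type 1 and Mx1-Cre 3 it was 0.10. Of its transcript, 32% of 50-base stretches also occur in other annotated genes.

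Cox4i1 and Cox5b did not separate the groups. Cox4i1, a regulatory subunit that binds ATP, had 332, 483 and 439 CPM in wild type, 372, 341 and 526 with Mx1-Cre and 428 and 399 with Vav-Cre, and log2 differences of -0.02 ± 0.19 and -0.01 ± 0.21. Cox5b, which binds zinc, had 12, 21.4 and 18.9 in wild type, 19.4, 15.1 and 32.8 with Mx1-Cre and 19.3 and 19.4 with Vav-Cre, high in Mx1-Cre 3 and low in wild type 1. Cox8a, a small membrane subunit, had differences of 0.37 ± 0.26 with Mx1-Cre and 0.27 ± 0.29 with Vav-Cre. The Mx1-Cre value was -0.14 without wild type 1 and Mx1-Cre 3.

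Cox7a2l, a factor that joins complexes III and IV into supercomplexes, was 1 of 13 members with a negative Mx1-Cre difference. It had 236, 266 and 254 CPM in wild type, 223, 229 and 226 with Mx1-Cre and 233 and 225 with Vav-Cre. All 5 libraries labelled knockout were below all 3 wild type libraries. The differences were small, -0.15 ± 0.11 and -0.14 ± 0.12 (edgeR adjusted p = 0.543 and 0.702), and kept their direction in all 20 alternatives. Cox7b gave -0.25 ± 0.20 for Vav-Cre minus Mx1-Cre.

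The isoforms known from most tissues had the higher levels. Compared per kilobase of transcript, Cox4i1 had 561 CPM per kb in wild type and Cox4i2, the isoform known from lung and from low oxygen, 9.39; by library the ratio was 44.2 to 188. Cox7a2 had 105 CPM per kb and the heart and muscle isoform Cox7a1 1.63. Cox6a2, the muscle partner of Cox6a1, had 1 count in wild type 2, 4 counts in Mx1-Cre 3 and 0 elsewhere, and Cox8b, the muscle partner of Cox8a, had 10 counts over all libraries. Cox8c had 0 counts in every library, Cox7b2 had 2 counts in wild type 1 alone, and Ndufa4l2, the hypoxia-induced partner of Ndufa4, had 1 count in Mx1-Cre 1 alone. Ndufa4 itself had 348 CPM per kb. Cox6b2, known from testis, was nearer to its partner. It had 46.3 CPM per kb in wild type, and Cox6b1 exceeded it only 2.49- to 3.53-fold by library.

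**Figure D5:**
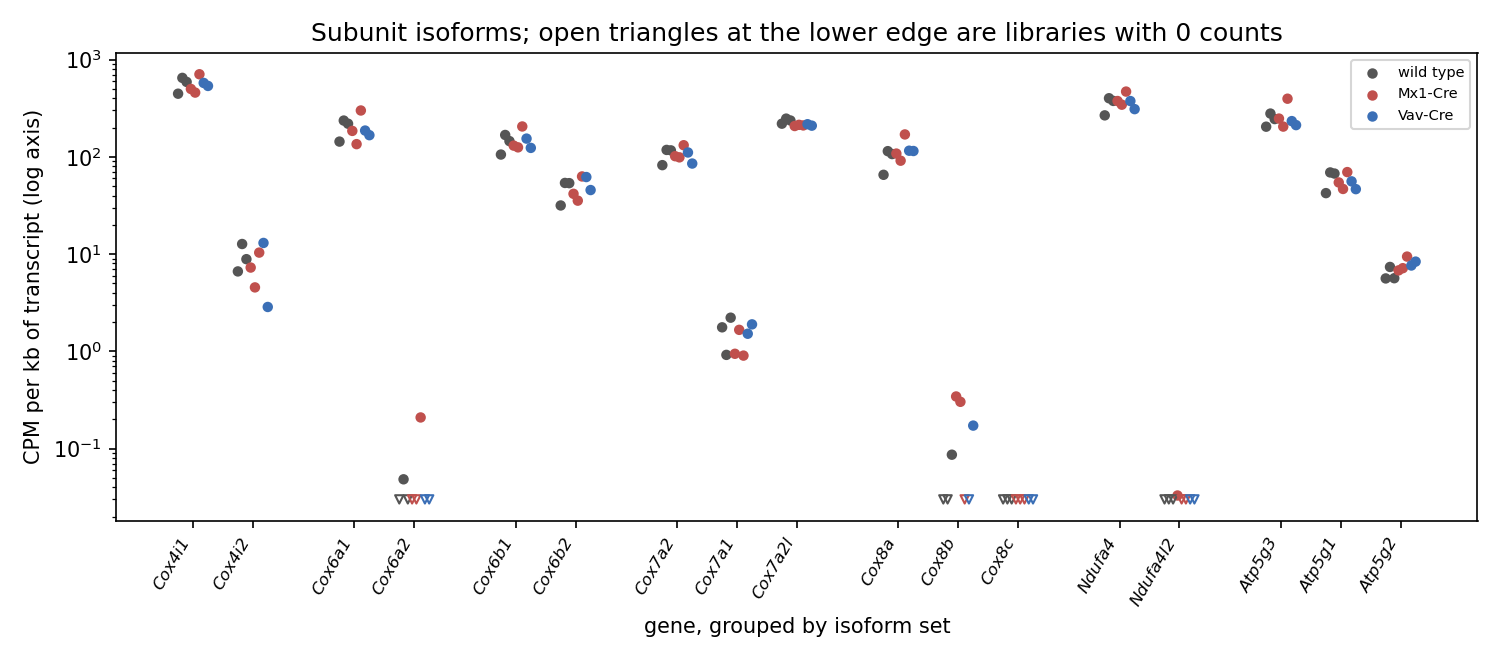
CPM per kb of transcript (log axis) in each of the 8 libraries for 7 sets of subunit isoforms. Cox4i2 and Cox7a1 lie far below Cox4i1 and Cox7a2 in every library, Cox6b2 lies near Cox6b1, and Cox6a2, Cox8b, Cox8c and Ndufa4l2 have 0 to 4 counts in every library.

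Complex V, ATP synthase, had the highest median with Mx1-Cre. Of its 17 members 14 were positive there (median 0.22) and 10 with Vav-Cre (median 0.04). Summed levels were 3466 ± 303 CPM in wild type, 4091 ± 728 with Mx1-Cre and 3425 ± 349 with Vav-Cre. By library the sum was 3149, 3753 and 3497 in wild type, 3958, 3438 and 4876 with Mx1-Cre, and 3672 and 3178 with Vav-Cre. Mx1-Cre 3 was the highest of the 8, and Mx1-Cre 2 lay within the wild type range.

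Atp5b, the catalytic beta subunit, had 612, 763 and 757 CPM in wild type, 957, 666 and 1267 with Mx1-Cre and 755 and 795 with Vav-Cre. Mx1-Cre 1 and 3 were above all wild type libraries and Mx1-Cre 2 below wild type 2 and 3. The Mx1-Cre log2 difference was 0.44 ± 0.20 (edgeR adjusted p = 0.32), and over the alternatives it ran from 0.10 to 0.66 with adjusted p no lower than 0.0594. Atp5a1, the alpha subunit and the gene with the highest CPM in its complex, had 1258, 1363 and 1254 in wild type, 1468, 1304 and 1548 with Mx1-Cre and 1340.4 and 1055 with Vav-Cre. The groups overlapped, with Vav-Cre 2 lowest. Atp5c1, the central stalk's gamma subunit, gave 0.20 ± 0.14 with Mx1-Cre and 0.04 ± 0.16 with Vav-Cre.

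None of the other subunits of the stalks and the membrane part passed the test. Atp5d (delta) had 120.00, 153 and 115 CPM in wild type, 121, 116 and 215 with Mx1-Cre and 101 and 109 with Vav-Cre. Both Vav-Cre libraries were below the rest, and wild type 2 and Mx1-Cre 3 were high. Its Vav-Cre minus Mx1-Cre difference was -0.52 ± 0.26 (edgeR adjusted p = 0.412). Atp5e (epsilon) had 73, 105 and 101 in wild type, 119, 92.3 and 152 with Mx1-Cre and 131 and 97.1 with Vav-Cre, a difference of 0.38 ± 0.21 and 0.29 ± 0.23. Atp5f1, of the outer stalk, had 254, 293 and 276 in wild type and 309.6, 298 and 343 with Mx1-Cre, with no overlap and a difference of 0.21 ± 0.13. Of its transcript, 38.7% of 50-base stretches also occur in other annotated genes. Atp5k, a membrane subunit, had the largest Mx1-Cre difference of all members, 0.52 ± 0.29 (edgeR adjusted p = 0.417).

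The c subunit of the membrane rotor is made from 3 genes that encode the same mature protein. Atp5g3 had 242 CPM per kb in wild type, 283 with Mx1-Cre and 222 with Vav-Cre. Atp5g1 had 59.6, 56.9 and 51.2, and Atp5g2 6.21, 7.79 and 7.99. The order Atp5g3, Atp5g1, Atp5g2 held in all 8 libraries. Their sequence sharing differs, however: none of the 50-base stretches of Atp5g3 occur in another annotated gene, against 56.2% for Atp5g1 and 100% for Atp5g2. How shared reads were counted is not given in the sources used here, and its part in these values was not tested.

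The same limit touches other low members. In all, 16 of the 78 members share at least 25% of their 50-base stretches with other annotated genes, among them Atp5l (84.8%), Cox7c (53%), Atp5h (50.5%) and Uqcrb (43.4%). Atp5l, a membrane subunit, had 3.14, 4.30 and 4.57 CPM in wild type, 4.88, 5.04 and 5.47 with Mx1-Cre and 4.87 and 7.93 with Vav-Cre. All libraries labelled knockout were above the wild type ones, and Vav-Cre 2 stood apart from the rest. Its Vav-Cre difference of 0.68 ± 0.33 was the largest of the members (edgeR adjusted p = 0.416). Cox7c, with 3.43, 3.61 and 3.86 CPM in wild type, 3.33, 3.95 and 3.90 with Mx1-Cre and 4.62 and 6.17 with Vav-Cre, gave 0.57 ± 0.32 with Vav-Cre, again highest in Vav-Cre 2. Because of the shared sequence both values are uncertain. The complex I subunit Ndufs5 had 0 counts in all 8 libraries and shares 35.6% of its stretches with the processed pseudogene BC002163, named here after its counts were seen, which had 501 to 825 counts per library.

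Atp5s and Atp5sl, which share the prefix but are not part of the enzyme's core, were among the 13 members that were negative with Mx1-Cre. Atp5sl had 54.1, 54.7 and 55.9 CPM in wild type, 52.2, 48.8 and 57.2 with Mx1-Cre and 56.6 and 68.4 with Vav-Cre, and a Vav-Cre difference of 0.19 ± 0.15. Atp5s gave -0.05 ± 0.16 and 0.13 ± 0.17.

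Few members had groups that did not overlap. With Mx1-Cre, 3 members had all libraries above wild type (Uqcrc1, Atp5f1 and Atp5l), against 10.9% of all tested genes, and 1 had all below (Cox7a2l), against 14.8%. With Vav-Cre, 5 were above (Cox7c, Cox8a, Atp5g2, Atp5l and Atp5sl; all genes 15.6%) and 7 below (Ndufa10, Ndufs1, Ndufv1, Ndufs3, Uqcrc1, Cox7a2l and Atp5d; all genes 17.1%). Between the lines, Cox7c was higher in both Vav-Cre libraries (all genes 13.8%) and 7 members were lower: Ndufb6, Ndufa10, Ndufs1, Ndufv1, Ndufs3, Uqcrc1 and Atp5d (all genes 12.0%). The share of the members was under that of all tested genes in each case.

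The other genes of the pathway gave no calls either. The lists were chosen as the members were, and 0 of their tested genes passed the edgeR test in any of the 4 comparisons. Of all tested genes, 2.49% passed for Mx1-Cre, 0.511% for Vav-Cre, 2.65% for both lines averaged and 0.170% for Vav-Cre against Mx1-Cre. Each list held 2 to 22 tested genes, so 0 calls per list is near those shares. With Mx1-Cre, the positive differences were 7 of 13 for complex I assembly factors (median 0.02), 0 of 2 for complex II, 2 of 5 for complex III, 10 of 19 for complex IV (median 0.03) and 5 of 5 for complex V factors (median 0.11). With Vav-Cre, they were 5 of 13, 1 of 2, 2 of 5, 5 of 19 and 4 of 5. Foxred1, a complex I assembly factor, gave 0.51 ± 0.18 with Mx1-Cre (edgeR adjusted p = 0.191), Ndufaf4 -0.43 ± 0.17 with Vav-Cre (adjusted p = 0.285), and Uqcc, needed for complex III, 0.38 ± 0.12 with Mx1-Cre (adjusted p = 0.135). Among electron carriers and their synthesis enzymes, 10 of 15 were positive with Mx1-Cre and 4 of 15 with Vav-Cre. Coq6, of ubiquinone synthesis, had 52.5, 57.8 and 53.5 CPM in wild type, 48.3, 55.8 and 54.6 with Mx1-Cre and 35.2 and 38.3 with Vav-Cre. Both Vav-Cre libraries were the lowest, a difference of -0.57 ± 0.15 (edgeR adjusted p = 0.137).

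Among 21 nuclear regulators of mitochondrial genes, 12 were positive with Mx1-Cre and 9 with Vav-Cre. Nrf1, whose product binds the motif printed above, had 99.9, 84 and 80.1 CPM in wild type, 122, 120.2 and 117 with Mx1-Cre and 102 and 107 with Vav-Cre. All 5 libraries labelled knockout were above the wild type libraries, by 0.45 ± 0.12 with Mx1-Cre and 0.25 ± 0.14 with Vav-Cre (edgeR adjusted p = 0.0982 and 0.474). Hif1a, a regulator of the response to low oxygen, had 74.8, 91.6 and 107 in wild type, 65.6, 47.7 and 61.9 with Mx1-Cre and 79.8 and 74.4 with Vav-Cre. Mx1-Cre was below wild type in every library, with a log2 difference of -0.64 ± 0.17 (edgeR adjusted p = 0.0854). In the citric acid cycle list, 13 of 22 were positive with Mx1-Cre and 5 of 22 with Vav-Cre. Pdk2, a kinase that inhibits pyruvate dehydrogenase, had 28.5, 32.3 and 30.6 CPM in wild type, 18.8, 20.1 and 20.5 with Mx1-Cre and 26.1 and 28.5 with Vav-Cre. The Mx1-Cre libraries were the 3 lowest, at -0.62 ± 0.16 (edgeR adjusted p = 0.0697). Slc25a5, an ADP/ATP carrier, gave 0.38 ± 0.14 with Mx1-Cre, and Sod1, a superoxide dismutase, 0.22 ± 0.12.

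Other large protein assemblies were set beside the members. With Mx1-Cre, 56 of 76 mitochondrial ribosomal protein genes were positive (median 0.08), 35 of 39 proteasome genes (median 0.17) and 20 of 77 cytosolic ribosomal protein genes (median -0.10), against 65 of 78 members (median 0.13). With Vav-Cre, the medians were -0.10, -0.10 and -0.01, against -0.02. For wild type 1 and Mx1-Cre 3 the proteasome genes had medians of -0.11 and 0.27, the mitochondrial ribosomal protein genes -0.17 and 0.30, and the cytosolic ribosomal protein genes -0.31 and 0.23. Wild type 1 was thus low and Mx1-Cre 3 high for those lists as for the members. Whether the members differ from these lists was not tested.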

How the data were processed

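Raw read counts per gene symbol and library, deposited by the authors as whole numbers, were the input; a second deposited table gives CPM, the count over the library total (relative difference at most 5.1e-15), for 12457 genes. Libraries were unstranded, from amplified cDNA (SMARTer Ultra Low Input and NEBNext kits), per the labels' protocols. The submitters' processing notes name TopHat, SAMtools, HTSeq, edgeR and mm9. Their versions, the annotation and how shared reads were counted: not given in the sources used here.

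Counts were tested with edgeR 4.0.16 (R 4.3.3): filterByExpr defaults (minimum count 10, total 15; 14086 genes left), TMM, 1 quasi-likelihood fit of all 8 libraries by group, Benjamini-Hochberg over all tested genes, called below 0.05. Each SE was computed as the size of the log2 fold change over the square root of F. Log2 CPM used a prior count of 2, and intervals are 95%. Total counts per library ran from 28689765 to 33202926; the reads carry no molecular identifiers. They set the precision together with the spread between libraries. The script was tested on simulated data. Alternatives were DESeq2 1.42.0, limma 3.58.1 on log2(CPM + 1), other scalings and filters, a replicate block, and libraries left out.

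The members and lists were chosen with earlier results of these data known. Genes named were called members, the 3 smallest p per complex in each comparison of single lines, fixed core subunits and isoform sets, members under the count minimum, and up to 2 genes per list; BC002163, and members listed because groups did not overlap or correlations were low were named after their values were seen. The values of 1 member of complex I are not reported here; it stays in the counts, sums and medians. Transcript lengths and shared 50-base stretches come from GENCODE M21 (GRCm38), matched by symbol for 78 of 78 members, and promoter windows from RefSeq (GRCm38.p6), whose first 30 transcribed bases occur in a GENCODE transcript of the gene for 60 of 72 windows.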

Additional observations from a re-analysis of the deposited data

How the results depend on the processing

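No member was called by edgeR under any alternative scaling, filter, threshold of 0.1 or left-out library; DESeq2 called 1 of 78 for Vav-Cre minus Mx1-Cre, where it called 3.28% of all genes. With 1 library left out, the members' median ran from -0.06 to 0.12 for both lines averaged, -0.03 to 0.23 for Mx1-Cre, -0.18 to 0.10 for Vav-Cre and -0.33 to -0.01 for Vav-Cre minus Mx1-Cre. With wild type 1 and Mx1-Cre 3 left out together, chosen after seeing the data, the Mx1-Cre median was -0.16, and Ndufb7 (-0.0076), Ndufa1 (-0.015), Uqcrfs1 (-0.025) and Cox8a (-0.14) turned negative in Mx1-Cre. With library totals only, the complex II ratio of Mx1-Cre to wild type was 1.04. Sdha with Mx1-Cre turned to -0.0019 with limma and ran from -0.0092 (without Mx1-Cre 2) to 0.18 with 1 library left out. With Vav-Cre, Uqcrb turned to 0.017 without wild type 2, and without Vav-Cre 1 or Vav-Cre 2 the values were -0.32 and 0.084 for Uqcrb, -0.30 and 0.10 for Sdhc and -0.39 and 0.078 for Sdhd. The cause was not tested. Of 900 values over 45 pairs of gene and comparison, 889 kept direction and call, 10 changed direction and 1 became called. No pair was called in the main fit, so keeping the call meant staying uncalled. The threshold of 0.1 reuses that fit and could not change a direction. The labels do not say what the replicate numbers mark. After each gene's group mean was removed, same-numbered wild type and Mx1-Cre libraries correlated at -0.0016, 0.00073 and 0.129. Those with different numbers ran from -0.177 to 0.163. With groups of 2 or 3 libraries, such values cannot show whether the numbers mark a shared litter, day or batch. With the number as a replicate block 0 members were called. The medians were then 0.08 for both lines averaged, 0.12 for Mx1-Cre, 0.07 for Vav-Cre and -0.06 for Vav-Cre minus Mx1-Cre. With 2 or 3 libraries a group, a difference of 1.5-fold is outside the 95% interval for 44 of 78 members in Mx1-Cre and 39 in Vav-Cre.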
